A study of Homo sapiens with 12 samples.

Results

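MALAT1, NEAT1, TUG1 and 7 noncoding hosts of small nucleolar RNAs (snoRNAs), GAS5, SNHG1, SNHG5, SNHG6, SNHG8, SNHG12 and SNHG16, were examined in A375 cells, a human melanoma line. They were taken by gene name and make up 10 of the 29696 genes in the expression table. The cells had been infected with a lentivirus carrying a short hairpin RNA against ALKBH5 (shALKBH5) or a control hairpin (shCtrl). Each group had 3 input RNA libraries, which give expression, and 3 libraries immunoprecipitated (IP) with an antibody against N6-methyladenosine (m6A). Which ALKBH5 hairpin was used is not stated in the sources used here. The study says in general that experiments were repeated independently, but the labels do not say whether these libraries came from separate cultures, and if they did not, p-values measure only technical spread. Expression is in FPKM, fragments scaled to transcript length and library total, and depth is unknown. The FPKM of a library summed to between 212760 and 223231. The m6A peaks came as 1 pooled list per group and have no replicate check.

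Of the melanoma and melanocyte markers, SOX10 was the most abundant, at a mean of 184 FPKM in shCtrl and 181 FPKM in shALKBH5 cells, and was not called different. S100B, at a mean of 32.9 and 82.1 FPKM, S100A1, MITF and MIA were called higher in shALKBH5 cells, and CSPG4 was called lower. For MITF (adjusted p = 0.0475 by limma) the groups overlapped. The pigment genes TYR and DCT were near 0, PMEL was below 1 FPKM in both groups, and MLANA was not in the table. CD68, used as an immune marker, was at a mean of 16.2 FPKM in shCtrl and 40.4 FPKM in shALKBH5 cells, and the part of these markers in the results was not tested.

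ALKBH5 removes the methyl group of m6A from RNA. MALAT1 is a long RNA of nuclear speckles, where splicing factors gather, and NEAT1 is the RNA on which paraspeckles are built. The host genes carry snoRNAs in their introns. Their spliced RNAs are generally noncoding and many are degraded by nonsense-mediated decay.

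ALKBH5 was at 3.39, 3.92 and 3.12 FPKM in the shALKBH5 libraries and at 19.3, 17.8 and 17.6 FPKM in the shCtrl libraries. The groups did not overlap, and the targeted gene was lower in the libraries labelled as its knockdown. The log2 fold change, here always shALKBH5 minus shCtrl on log2(FPKM + 0.1), was -2.36 (SE 0.0887, adjusted p = 1.28e-06 by limma).

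All 10 transcripts had a mean of at least 0.5 FPKM and were tested among 12985 genes. At an adjusted p below 0.05, 9 of the 10 were called, all higher in shALKBH5 cells, and MALAT1 was not. Of all genes tested, 61.0% were called in either direction and 34.7% were called higher, so a call in itself was common. The same 9 had all shALKBH5 libraries above all shCtrl libraries, an order found in 38.0% of the genes tested. The exact two-sided permutation p of each was 0.1, the smallest that 3 against 3 libraries allow. In bulk RNA, more RNA per cell and more cells that hold the RNA cannot be told apart.

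**Figure D1:**
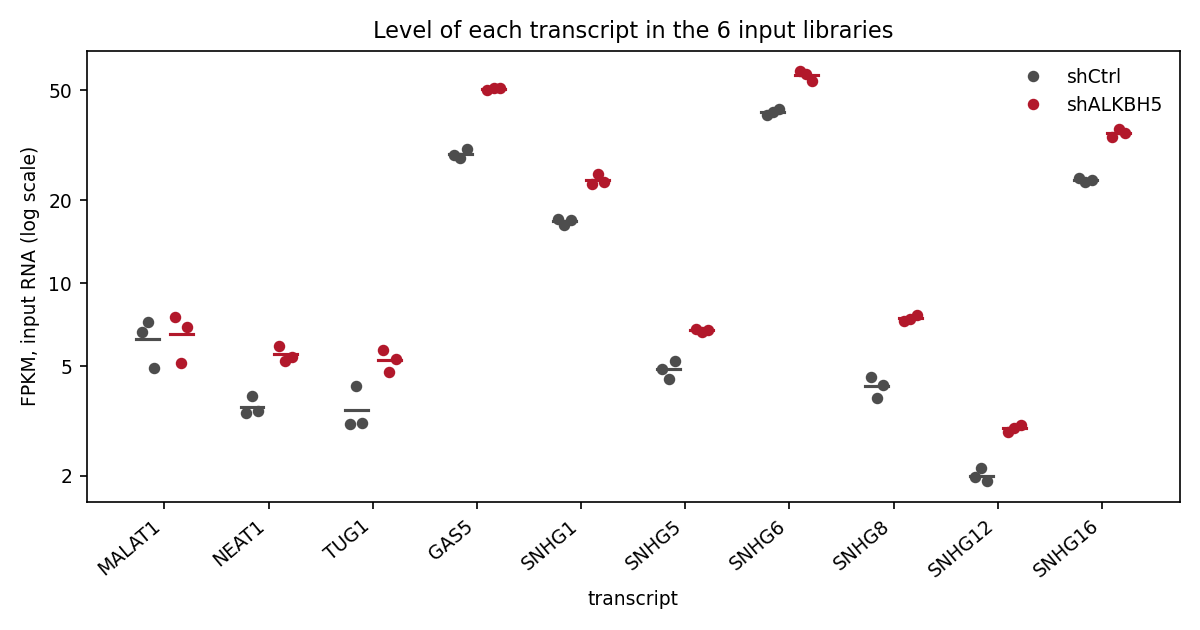
FPKM of each transcript in the 3 shCtrl and 3 shALKBH5 input libraries on a log axis; points are libraries and bars are group means. MALAT1 overlapped between the groups, and the other 9 transcripts were higher in every shALKBH5 library.

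MALAT1 (ENSG00000251562) was at 7.52, 5.11 and 6.92 FPKM in the shALKBH5 libraries and at 6.63, 7.20 and 4.92 FPKM in the shCtrl libraries. The groups overlapped, and each held 1 library well below the rest. Its group mean was 6.52 ± 1.25 FPKM in shALKBH5 and 6.25 ± 1.19 FPKM in shCtrl cells (SD, n = 3 each). The log2 fold change was 0.06 (SE 0.179, adjusted p = 0.794 by limma), and its sign turned to -0.012 when the libraries were rescaled by their median ratio, to -0.052 without shALKBH5 replicate 1 and to -0.10 without shCtrl replicate 3.

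NEAT1 (ENSG00000245532) was at 5.94, 5.23 and 5.40 FPKM in the shALKBH5 libraries and at 3.37, 3.90 and 3.43 FPKM in the shCtrl libraries. The groups did not overlap. The log2 fold change was 0.62 (SE 0.0818, adjusted p = 0.000459 by limma). The gene value does not separate the short and the long form of NEAT1. Per the labels, poly(A) RNA was purified from total RNA, whereas mature MALAT1 and the long form of NEAT1 end without a poly(A) tail, and the effect of this on the values was not tested.

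TUG1 (ENSG00000253352), a long noncoding RNA found in nucleus and cytoplasm, was at 5.73, 4.78 and 5.30 FPKM in the shALKBH5 libraries and at 3.08, 4.22 and 3.12 FPKM in the shCtrl libraries. The groups did not overlap, although shCtrl replicate 2 came close to the lowest shALKBH5 library. The log2 fold change was 0.60 (SE 0.132, adjusted p = 0.00580 by limma).

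GAS5 (ENSG00000234741), a host of C/D box snoRNAs, was at 50.1, 51.2 and 51.1 FPKM in the shALKBH5 libraries and at 29.2, 28.4 and 30.6 FPKM in the shCtrl libraries. The libraries of each group lay close together and the groups were far apart. The log2 fold change was 0.79 (SE 0.0412, adjusted p = 5.15e-06 by limma). SNHG8, the host of SNORA24, was at 7.31, 7.43 and 7.70 FPKM against 4.58, 3.84 and 4.29 FPKM, again without overlap. Its log2 fold change of 0.81 (SE 0.0746, adjusted p = 7.31e-05 by limma) was the largest of the 10, within 1 SE of that of GAS5. The order of SNHG8 and GAS5 turned with a pseudocount of 1 (0.70 and 0.77) and without shCtrl replicate 2 (0.74 and 0.76).

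The other 5 hosts rose by log2 fold changes of 0.43 to 0.56. SNHG6, which holds SNORD87, had the highest level of the 10 in both groups, at 58.7, 57.4 and 53.9 FPKM in shALKBH5 cells and 40.9, 41.9 and 42.9 FPKM in shCtrl cells. SNHG16, which holds SNORD1A, SNORD1B and SNORD1C, was at 34.0, 36.1 and 35.1 FPKM against 24.1, 23.3 and 23.7 FPKM. SNHG1, host of SNORD22 and SNORD25 among others, rose from a mean of 16.8 ± 0.474 FPKM to 23.7 ± 1.07 FPKM (SD, n = 3 each). SNHG5 rose from 4.87 ± 0.363 to 6.74 ± 0.0862 FPKM and SNHG12 from 2.00 ± 0.112 to 2.97 ± 0.0884 FPKM (SD, n = 3 each). In all 5 the groups did not overlap. Over the 7 hosts the median log2 fold change was 0.55, beside 0.09 over all genes tested.

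In shCtrl cells the order of the levels per length was SNHG6, GAS5, SNHG16, SNHG1, MALAT1, SNHG5, SNHG8, NEAT1, TUG1 and SNHG12. The first 4 were separated from each other in every library and SNHG12 lay below the rest, whereas each neighbouring pair from MALAT1 to TUG1 overlapped. In shALKBH5 cells the means of SNHG8 and SNHG5 stood above that of MALAT1, but the libraries of both overlapped those of MALAT1, and neighbours from SNHG5 to TUG1 overlapped.

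Genes on the opposite strand overlap several of these loci. PRSS12, at SNHG8, had a log2 fold change of -0.53, and TRNAU1AP, at SNHG12, of -0.61. Both were called lower, opposite in direction to the host. The sources used here describe a second strand that keeps orientation for the IP RNA only, and do not give whether counting of the input used strand, so the values of these hosts are uncertain to that extent.

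Among 20 further noncoding snoRNA hosts, 17 were tested, of which 14 were called higher and 3 were not called, with a median log2 fold change of 0.58. In 1 of the 14, SNHG21 (adjusted p = 0.0478 by limma; named after its value was seen), the groups overlapped. SNHG14, which did not reach the mean for testing and is named after its values were seen, lay the other way, at 0.327, 0.306 and 0.308 FPKM in the shALKBH5 libraries and 0.562, 0.664 and 0.612 FPKM in the shCtrl libraries. SNHG20 rose from 0.914 ± 0.114 to 3.02 ± 0.00761 FPKM (SD, n = 3 each), a log2 fold change of 1.63 (SE 0.104, adjusted p = 1.24e-05 by limma). SNHG4 and SNHG9 followed with 1.55 and 1.38. SNHG11, SNHG17 and DANCR were not called, at -0.11, 0.12 and -0.03. Together with the 7 hosts above, 21 of 24 tested noncoding hosts were called higher (87.5%, beside 34.7% of all genes tested).

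**Figure D2:**
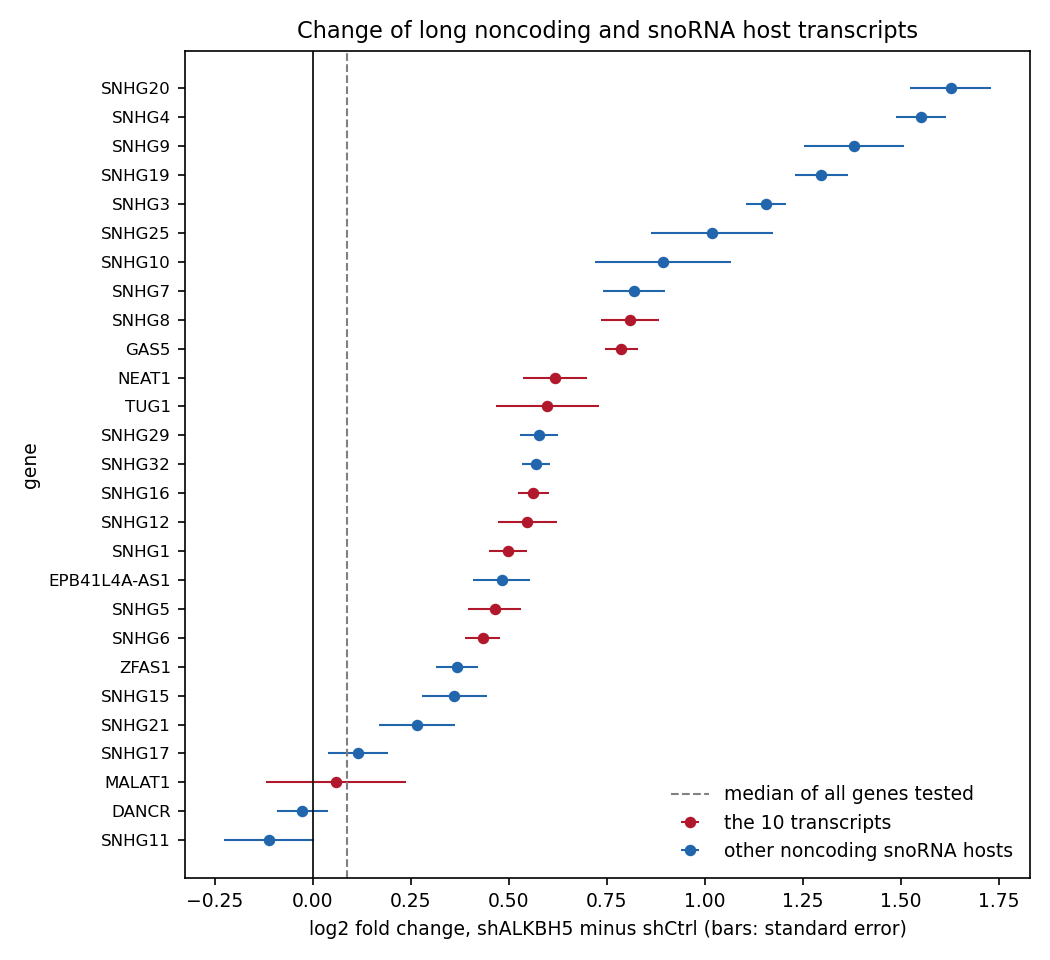
Log2 fold change of the 10 transcripts and of 17 other noncoding snoRNA hosts, shALKBH5 minus shCtrl; bars are standard errors and the dashed line is the median of all genes tested, 0.09. Values ran from -0.11 for SNHG11 to 1.63 for SNHG20, with MALAT1 near 0.

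Protein-coding snoRNA hosts outside the ribosomal protein genes had a lower median log2 fold change, 0.11. Of 12 such genes, 6 were called higher (50%, beside 34.7% of all genes tested) and 6 were not called. The largest was WDR43, a factor of ribosome biogenesis, at 0.48, followed by EIF4A2 at 0.39 and TPT1 at 0.32. NCL and HSPA8 were not called, at -0.06 and -0.12.

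Proteins of paraspeckles and nuclear speckles were called lower more often than higher. Of 14 paraspeckle proteins, 1 was called higher and 10 lower, with a median log2 fold change of -0.36, while 26.2% of all genes tested were called lower. SFPQ, which like NONO binds NEAT1, fell from 51.1 ± 1.96 to 32.1 ± 0.796 FPKM (SD, n = 3 each), a log2 fold change of -0.67 (SE 0.0432, adjusted p = 1.31e-05 by limma). HNRNPH3 was at -0.51 and EWSR1 at -0.46, whereas NONO was higher at 0.25 (chosen after its value was seen). Of 11 nuclear speckle proteins, 2 were called higher and 5 lower, with a median of -0.01, SRRM1 at -0.57, SRSF2 at -0.36 and SRSF3 at -0.32.

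Of 18 snoRNP core and assembly proteins, 4 were called higher and 3 lower, and the median was 0.07. NUFIP1 and NOLC1, which act in snoRNP assembly, were at 0.59 and 0.51, and NOP10, a core protein of H/ACA snoRNPs, was at -0.40. FBL, NOP56, NOP58, DKC1 and GAR1 were not called. Of 11 genes for RNase P and RNase Z, which cut the end of MALAT1 and the long NEAT1, 4 were called higher and 3 lower, with a median of 0.04, RPP38 at 0.43, RPP21 at -0.33 and POP5 at 0.33. Among 14 factors of nonsense-mediated decay, 2 were called higher and 5 lower, with a median of -0.01, SMG6 at -0.53 and RBM8A at -0.38. The shares called higher and lower were 22.2% and 16.7% for snoRNP proteins and 14.3% and 35.7% for decay factors. For RNase P and RNase Z they were 36.4% and 27.3%, near the 34.7% and 26.2% of all genes tested.

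Of 18 other long noncoding RNAs only 8 were tested, of which 2 were called higher and 3 lower, with a median of -0.23. H19 was at -1.45, MIR22HG at 0.93 and NORAD at 0.67. Among the 7 tested neighbours of MALAT1 and NEAT1 on chromosome 11, 4 were called higher and 2 lower, with a median of 0.14, EHBP1L1 at -0.92, SLC25A45 at 0.31 and FRMD8 at 0.29. The shares called higher and lower were 57.1% and 28.6% for the neighbours and 25.0% and 37.5% for the other long noncoding RNAs. Of all genes tested, 34.7% were called higher and 26.2% lower.

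**Figure D3:**
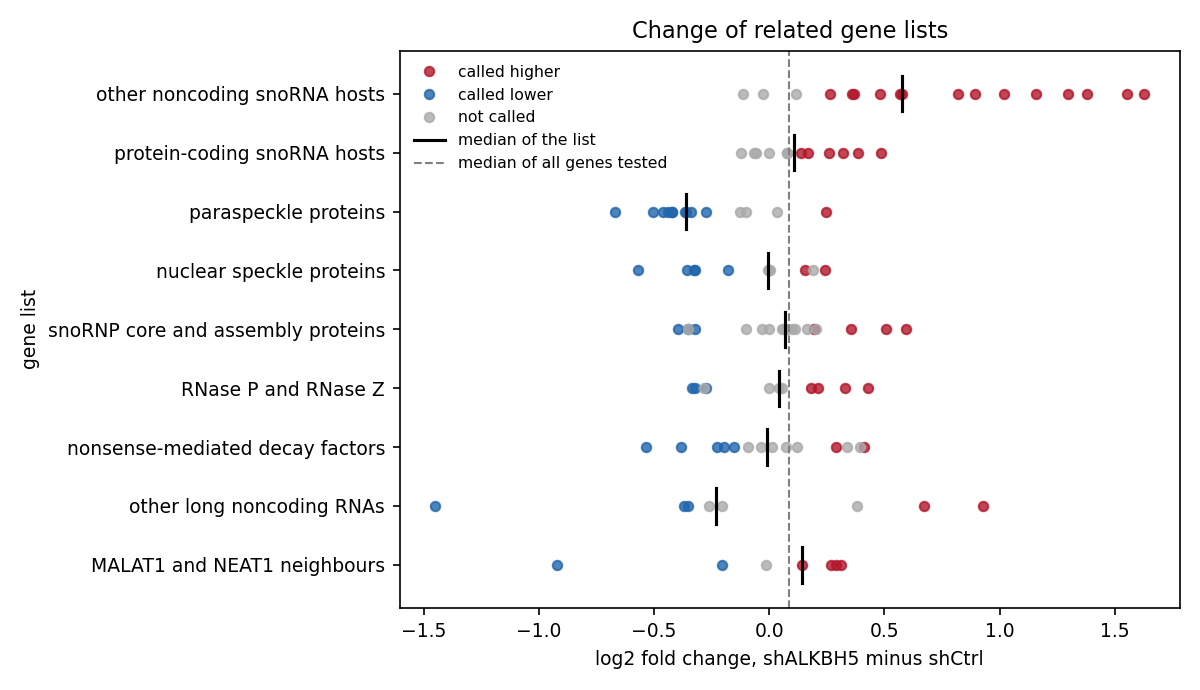
Log2 fold change of each tested gene in 9 gene lists, shALKBH5 minus shCtrl; points are genes coloured by call, black bars are list medians and the dashed line is the median of all genes tested. Other noncoding snoRNA hosts had a median of 0.58 and paraspeckle proteins of -0.36.

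Likeness was read over 5708 tested genes whose mean reached 5 FPKM. The profile over the 6 input libraries most like MALAT1 was that of METAP2 (Pearson r 0.924), followed by CT45A10 (0.890) and ATP2A1-AS1 (0.859). Those most like NEAT1 were TMEM167A (0.997), ZMAT3 (0.996) and SH3PXD2A (0.996). Those most like GAS5 were GNPDA1 (1.00), ANKS1A (0.999) and JOSD1 (0.999). The libraries form 2 groups, so r also carries the difference between them.

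The start regions of 3 hosts are shown because they share an element. Each stretch runs from 40 bases before to 20 bases after the start site in RefSeq (GRCh38.p14), 5′ to 3′ on the strand of the gene, and capitals mark TATAA and, where the start site is a C followed by 4 bases that are each C or T, those 5 bases.
SNHG5, chr6:85678714-85678773, minus strand: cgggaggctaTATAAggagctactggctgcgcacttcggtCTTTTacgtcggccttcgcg
SNHG8, chr4:118278722-118278781, plus strand: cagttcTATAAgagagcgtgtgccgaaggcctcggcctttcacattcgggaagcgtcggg
SNHG12, chr1:28581854-28581913, minus strand: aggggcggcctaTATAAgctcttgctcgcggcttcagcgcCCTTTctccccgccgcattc

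TATAA began 30, 34 and 28 bases before the start site in SNHG5, SNHG8 and SNHG12. It lay within the 40 bases before the start on the gene's strand in 4.34% of all 35116 windows, and on the other strand in 2.23%. A C followed by 4 bases of C or T at the start site occurred in 4.07%. RefSeq windows were matched for 8 of the 10 genes, and TATAA was found in 4 of these, also counting a second window of MALAT1. The start sites shown lie 199, 53 and 1259 bp from the gene starts of the expression table for SNHG5, SNHG8 and SNHG12. GAS5, SNHG1 and SNHG16 had neither element at the RefSeq start site used, which lies 163, 68 and 0 bp from the gene start of the expression table. The C and pyrimidine start was read at that base only, so another start site could give another result. Of 17 other noncoding hosts with a window, 3 had TATAA and 5 had the C and pyrimidine start. These matches are a description of sequence only.

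The m6A lists held 46039 peaks for shALKBH5 and 44304 for shCtrl, with a median fold enrichment of IP over input of 5.31 and 5.25. Their positions were read as GRCh38. At least 1 peak under their own names was listed for 6 of the 10 transcripts in the shALKBH5 list and 7 in the shCtrl list, beside 86.0% and 85.5% of the genes tested. The counts were 5 and 5 for MALAT1, 8 and 7 for NEAT1, and 9 and 10 for TUG1. They were 3 and 4 for SNHG5, 2 and 2 for SNHG8, and 2 and 2 for SNHG16. Some entries of NEAT1 and TUG1 are nested, and those of TUG1 make 5 and 6 separate regions. The shorter TUG1 entries that overlap longer ones lie on small AC004542 genes of the same strand. GAS5 had 0 and 1. SNHG1 had no peak under any name, and SNHG6 and SNHG12 none under their own names.

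The strongest peaks of the 10 transcripts lay at the start of NEAT1. One spanned its first 2603 bases (chr11:65422774-65425376, plus strand, noncoding exon). Its fold enrichment was 243 in the shALKBH5 list and 240 in the shCtrl list, above 99.9% of the peaks of either list. An entry within it, at chr11:65422798-65425375, was the highest of either list among the 10 transcripts, at 258 and 243. Shorter nested entries were far lower, at 3.82 and 1.76 (chr11:65423638-65423742) and at 2.54 and 2.25 (chr11:65423960-65424118). Each of these has exactly the span of a small AP000944 gene on the same strand, near 0 FPKM in the input libraries. Whether they show a separate stretch of NEAT1 is therefore uncertain. With nested entries merged, the 8 and 7 make 4 and 3 separate regions. A second region, about 3050 bases from the start, was at 12.1 and 13.1. Far along the gene, in a stretch annotated to another transcript (ENST00000501122) than the start (ENST00000499732), a peak at chr11:65440326-65440566 was at 3.22 in the shALKBH5 list and its counterpart at 5.39 in the shCtrl list, and a peak at chr11:65444162-65444341, at 2.78, was in the shALKBH5 list only.

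In MALAT1 the first peak began at the gene start, at chr11:65497688-65498257 with a fold enrichment of 7.96 in the shALKBH5 list and at chr11:65497688-65498676 with 12.8 in the shCtrl list. The next, over 2784 and 2485 bases, was at 11.7 and 12.3. Another, at chr11:65502446-65503075 in the shALKBH5 list, was at 30.5, and its counterpart at chr11:65502476-65503045 in the shCtrl list was at 17.1. The lists thus differed in opposite directions at these peaks, lower in shALKBH5 at the gene start and higher here. An opposite-strand AP000769 peak at chr11:65498010-65498405, in the shCtrl list only, lay within the first MALAT1 peak at the same fold enrichment of 12.8, so the source of that peak is uncertain. In the input libraries that AP000769 gene (ENSG00000270117) was near 0, at a mean of 9.4e-05 FPKM in shALKBH5 and 1.4e-05 FPKM in shCtrl cells. A peak at the 3′ end, chr11:65506366-65506516, was at 3.76 in the shCtrl list only.

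GGACT, a common form of the m6A consensus, lies under the first MALAT1 peak of both lists. The 50 bases from a RefSeq start site of MALAT1 (GRCh38.p14, chr11:65497738-65497787, plus strand, noncoding exon) are shown 5′ to 3′ with GGACT in capitals.
MALAT1: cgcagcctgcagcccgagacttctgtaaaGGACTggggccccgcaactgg

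GGACT occurred on the gene's strand in the 50 bases after the start in 4.90% of the 35116 windows and anywhere in the window on that strand in 25.3%. No methylated base can be read from a peak of this length.

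TUG1 had its strongest peak near the 5′ end, at 42.3 in the shALKBH5 list (chr22:30969455-30969844) and 66.4 in the shCtrl list (chr22:30969485-30969994). Its longest peaks, over 4313 and 3864 bases toward the 3′ end, were at 10.6 and 14.3. Peaks of an opposite-strand gene overlap that end, and strand use is again not stated.

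**Figure D4:**
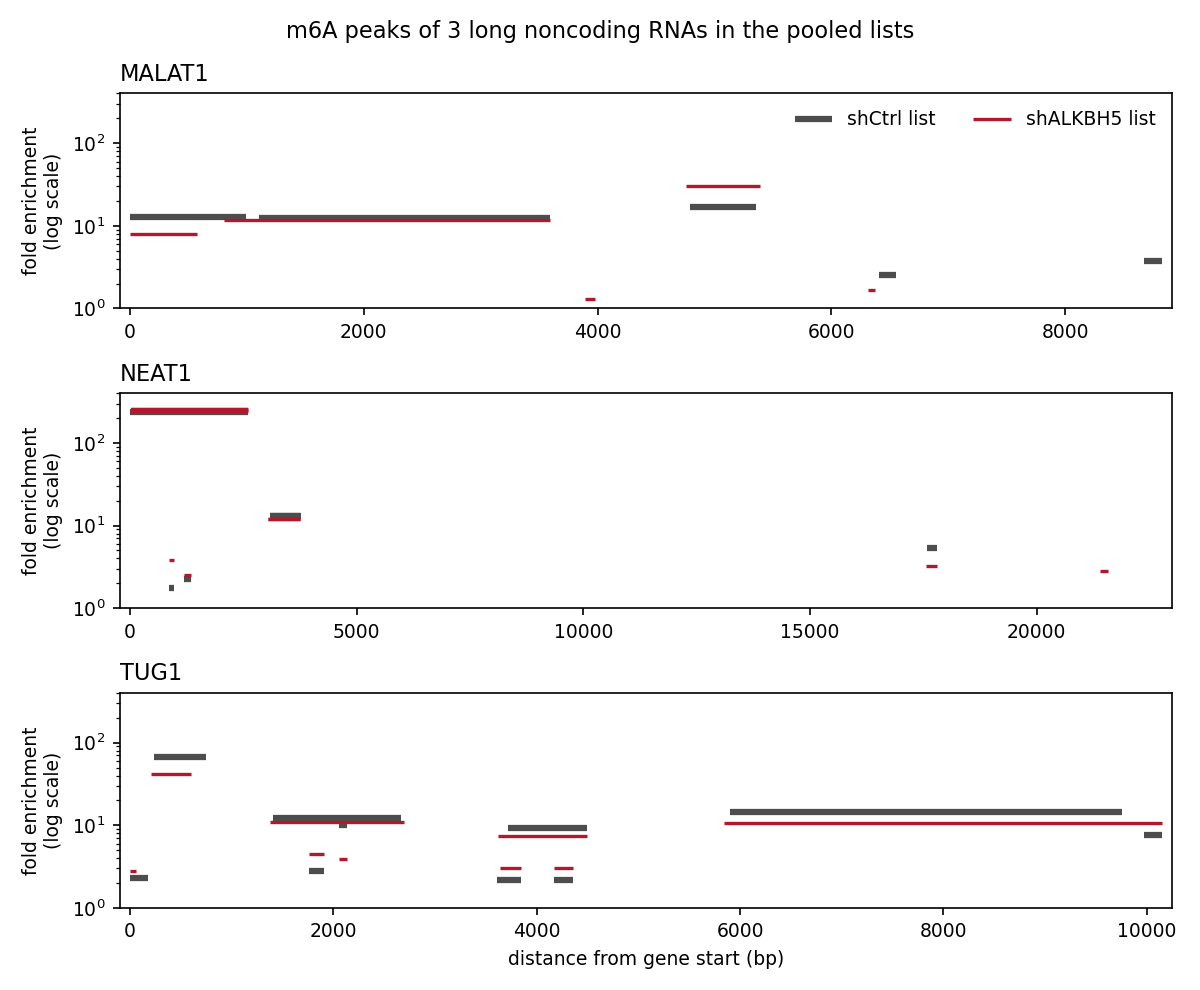
Fold enrichment of IP over input (log axis) of each listed peak of MALAT1, NEAT1 and TUG1 against distance from the gene start in bp; each line is 1 peak from the pooled shCtrl (thick) or shALKBH5 (thin) list. NEAT1 stood highest, at 240 or more in long peaks over its first 2603 bases. Shorter peaks nested there, on the spans of small AP000944 genes, lay at 3.82 or lower.

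Peaks listed under the hosts' names had a lower fold enrichment than the strongest ones of MALAT1, NEAT1 and TUG1. The highest was in SNHG5, where a span of 2897 bases was at 15.9 in the shALKBH5 list and 1 of 5052 bases at 10.2 in the shCtrl list. The next SNHG5 entries went the other way, at 2.69 in the shALKBH5 list and 8.17 in the shCtrl list. A further SNHG5 peak, at 6.81, was in the shCtrl list only. The entries at 10.2 and 2.69 did not pass the stricter filter on peaks given below. SNHG8 had a peak of 449 bases at 2.70 in the shALKBH5 list and 3.83 in the shCtrl list, and a second at 8.57 and 3.76. The second coincided with an opposite-strand PRSS12 peak at 9.80 and 3.67, so its source gene is uncertain. Near the SNHG5 start a peak was at 2.32 and 4.68, and SNHG16 had one of 151 bases at 9.80 and 8.94 and one at its end at 1.80 and 2.40. The end peak coincided with opposite-strand ST6GALNAC2 peaks at 1.79 and 13.1, so its source gene is uncertain too. The GAS5 entry, in the shCtrl list only, spanned 4655 bases at 1.68.

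Some host peaks carried the name of a nested snoRNA on the same strand. In SNHG6 a peak listed as SNORD87 was at 2.71 and 2.69, and in SNHG12 one listed as SNORD99 was at 3.04 and 3.33. In SNHG16 peaks listed as SNORD1A were at 4.62 and 4.71. Within SNHG5, peaks listed under the pseudogene PKMP3, at 20.4, were in the shCtrl list only. The lack of a peak under the names SNHG6 and SNHG12 is therefore not a lack of peaks over their exons and introns.

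Of the 29 entries in the shALKBH5 list, 26 overlapped an entry of the shCtrl list on the same strand (89.7%, 95% Wilson interval 73.6% to 96.4%), beside 78.1% of all peaks. Of 31 entries in the shCtrl list, 27 overlapped (87.1%, 71.2% to 94.9%), beside 81.3%. These intervals cover counting error only, and entries that share a region are not independent. Over the 28 pairs that shared at least 50% of both peaks, the median ratio of fold enrichment, shALKBH5 over shCtrl, was 0.937, beside 0.970 over all 25500 such pairs. The deposited comparison of peaks listed 7 peaks of 6 of the transcripts, beside 32.7% of the genes tested with a listed peak. MALAT1 had 2, and NEAT1, TUG1, SNHG5, SNHG8 and SNHG16 had 1 each. That of NEAT1 overlapped the short entry at chr11:65423638-65423742 but not the one at chr11:65423960-65424118. It is therefore not the peak of 2603 bases, which covers both.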

How the data were processed

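Input RNA-Seq and MeRIP-Seq of A375 cells were grouped by the sample labels, with 3 libraries per group and assay. The authors deposited expression as FPKM. They deposited a pooled peak list for either group, in which each peak has a fold enrichment (IP against input) and a log10 FDR, read as a score. The aligner, annotation and peak caller are not given in the sources used here. The labels name build mm10, but the genes are human. Of 19997 RefSeq GRCh38.p14 start sites of genes in the table, 25.8% equal the gene start there, so positions were read as GRCh38. Peak starts were changed to count from 1. The authors' tables also hold fold changes, p-values and adjusted values for expression and for peaks, which were not used. Low FPKM values showed no steps, so depth is unknown.

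A gene entered the test when its mean over the 6 input libraries reached 0.5 FPKM. Testing was on log2(FPKM + 0.1) with limma 3.58.1 (lmFit, eBayes with trend, two-sided) in R 4.3.3, with Benjamini-Hochberg adjustment over all 12985 genes. The study's count-based test could not be applied to FPKM. An exact permutation test of 3 against 3 libraries cannot go below p = 0.1. The test was tested on simulated data. The pseudocount shrinks log2 fold changes of genes near 0. Other steps used Python 3.11.15, pandas 2.3.3, scipy 1.17.1 and matplotlib 3.10.9. An overlap of peaks meant 1 bp or more in common, strand included.

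The text names ALKBH5, the 10 transcripts, up to 3 called genes per list with the largest change, and the 3 genes most like MALAT1, NEAT1 and GAS5. Other names were chosen after their values were seen. Members and lists were chosen with earlier results of these data known. Alternatives were other pseudocounts, filters and scaling, the replicate number as a block, no trend, leaving out each library, stricter peaks and 50% overlap. Assigning peaks by position was added after the data were seen.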

Additional observations from a re-analysis of the deposited data

How the results depend on the processing

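The same count of 9 of the 10 transcripts was called under all 13 alternatives for expression, and the log2 fold changes of these 9 stayed positive and called. GAS5 ranged from 0.72 to 0.82, NEAT1 from 0.51 to 0.68 and TUG1 from 0.49 to 0.74. MALAT1 was called under none. Its log2 fold change was -0.012 with median-ratio rescaling and ranged from -0.10 to 0.22 when 1 library was left out, turning negative without shALKBH5 replicate 1 (-0.052) and without shCtrl replicate 3 (-0.10). The cause was not tested. Genes called ranged from 6871 to 8231. With median-ratio rescaling 3803 were called higher and 3893 lower, where the reported fit had 4509 and 3408. Other noncoding snoRNA hosts called higher ranged from 13 to 14 of those tested.

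With the replicate number as a block, 7271 genes and 9 of the 10 transcripts were called. The correlations of deviations between libraries of the same number were 0.0181, -0.0462 and 0.0591, so the numbers were not taken to pair the libraries.

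When only peaks enriched 2 times or more at an FDR no higher than 0.01 were kept, those of the transcripts were 23 and 26 in the shALKBH5 and shCtrl lists, of which 95.7% and 80.8% overlapped the other list, beside 82.1% and 83.6% of all such peaks. Assigned by position and strand, an alternative chosen after seeing the data, they were 33 and 37. With an overlap of at least 50% of both peaks, the shared shares were 82.8% and 77.4%, beside 51.6% and 53.7% of all peaks. The planned count of GGACT in all peaks, by exon blocks or whole span, was not run because no genome was used here. Depth is unknown, the peak lists have no replicates, and gene-level FPKM does not separate transcript forms.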

Other observations

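MKI67, a marker of proliferating cells chosen after its values were seen, was at 3.18, 2.57 and 2.87 FPKM in the shALKBH5 libraries and at 10.3, 12.9 and 9.06 FPKM in the shCtrl libraries, a log2 fold change of -1.86 (SE 0.136, adjusted p = 2.41e-05 by limma). The groups did not overlap. Its part in the change of the snoRNA hosts was not tested.

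The table held 278 snoRNA entries, of which 39 had a mean of at least 0.5 FPKM. Of these, 6 were called, 4 of them higher, beside 61.0% of all genes tested called in either direction. Of the 18 nested in the 10 genes, 1 reached that mean. This was SNORD99 in SNHG12, at 2.32, 1.80 and 3.12 FPKM in the shALKBH5 libraries and 2.04, 1.61 and 1.46 FPKM in the shCtrl libraries. The groups overlapped, with an adjusted p of 0.0869 by limma. SNORD99 lies within SNHG12 on the same strand, and whether reads of the host enter its value was not tested. Poly(A) RNA was purified, and the effect of this on the snoRNA values was not tested either.

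Of the markers for melanoma or melanocytes, 9 of 10 were in the table and 6 reached 1 FPKM, with SOX10 the most abundant. TYR and DCT were near 0. Their summed level was 450.4, 441.1 and 450.7 FPKM in the shALKBH5 libraries and 413.5, 385.8 and 391.8 FPKM in the shCtrl libraries. Keratinocyte markers, 2 of 4 in the table, summed to 11.5, 11.2 and 10.7 FPKM against 9.53, 8.90 and 8.97 FPKM, a sum made up mostly of KRT10, while KRT14 was called lower, at a mean of 0.369 against 0.961 FPKM. Fibroblast markers, 5 of 5 in the table, summed to 6.74, 5.54 and 6.35 FPKM against 9.70, 8.74 and 8.79 FPKM. That lower sum came from PDGFRB, at a mean of 2.73 against 7.25 FPKM, while LUM was called higher, at 2.61 against 1.16 FPKM, and DCN was higher in every shALKBH5 library. Endothelial markers were near 0, and of the 3 immune markers only CD68 was in the table, at 38.1, 41.9 and 41.3 FPKM in shALKBH5 and 16.5, 17.2 and 14.8 FPKM in shCtrl libraries. Their part in the results was not tested.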
